A study of Mus musculus with 2 samples.

Results

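The genes described here are 10 that mark the resident macrophages of the mouse lung airspace, the alveolar macrophages: Pparg, Fabp1, Fabp4, Marco, Siglecf, Ear1, Car4, Atp6v0d2, Krt79 and Krt19. They were selected on their levels in these same 2 libraries, so their levels and their differences between the libraries are given as a description with no test. All 10 were listed in both count tables, which together named 24785 genes. The BLM library held sorted CD45+ leukocytes from the lungs of C57BL/6N mice of 10 to 16 weeks, taken on day 15 after 50 µg of intratracheal bleomycin, which damages the alveoli and is the standard trigger of lung fibrosis in mice. The naive library held CD45+ leukocytes from lungs of C57BL/6N mice given no treatment. Each library was a pool of 3 mice with no map from cell to mouse used here, there was 1 library per group, and library preparation, sequencing and treatment therefore cannot be told apart. Single cells were captured on the BD Rhapsody microwell system, and transcripts were counted by their unique molecular identifiers (UMIs).

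Alveolar macrophages take up and degrade the surfactant lipid that lines the airspace. They settle around birth under GM-CSF and TGF-beta, which induce the nuclear receptor PPAR gamma, and they maintain themselves by division in the undisturbed lung. After injury, monocytes enter the lung and can become macrophages that sit in the same airspace and slowly take on the same genes. The 10 genes cover different sides of this identity. Pparg encodes PPAR gamma itself. Fabp1 and Fabp4 encode carriers of fatty acids in the cytosol, and Fabp4 is a well known PPAR gamma target. Marco encodes a scavenger receptor that binds bacteria and particles, and Siglecf a sialic acid-binding surface receptor that is also found on eosinophils. Ear1 encodes a ribonuclease of the eosinophil-associated family, Car4 a membrane-anchored carbonic anhydrase, and Atp6v0d2 a subunit of the proton pump that acidifies lysosomes. Krt79 and Krt19 encode keratins, which are best known from epithelium.

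After filtering, 4391 BLM and 3808 naive cells were kept, with a median of 2380 and 2699.5 UMIs per cell, and 22 barcodes occurred in both libraries. Cells were clustered with both libraries integrated and with the 10 genes left out of the clustering, and each cluster took its name from markers that include none of the 10. The alveolar macrophage class (462 BLM and 580 naive cells) detected all 10 of its markers, among them Chil3 and Ear2. Its median depth was 12634.5 UMIs per cell in BLM and 9968.5 in naive. A second class of interstitial or recruited macrophages, named from markers such as the C1q genes, Apoe, Pf4 and Trem2, held 502 BLM and 122 naive cells, and a cycling macrophage class held 101 and 71. All class names mean cells like that class. When the libraries were clustered without integration, only 51 BLM cells, at a median of 1050 UMIs, fell in the alveolar class. Beside them were 622 naive cells at 9809.5. The class of interstitial or recruited macrophages then held 965 BLM and 92 naive cells, led by Retnla, C1qa, Mmp12 and C1qb. The alveolar name of most BLM cells, and their pairing with naive alveolar macrophages, thus rested on the integration. Levels were obtained by summing a gene's UMIs within a class and scaling the class total to 1000000 (CPM), with an exact Poisson 95% interval, and they are compared within a gene, not between genes. All intervals cover counting error only.

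In alveolar macrophages, 5 of the 10 genes were lower in BLM by 2-fold or more with an interval of the ratio that left out no difference: Fabp1, Krt79, Krt19, Ear1 and Siglecf. None of the 10 was higher by the same rule. The other 5, Pparg, Fabp4, Marco, Atp6v0d2 and Car4, stayed within 2-fold when all cells of the class were summed. Of the 10515 genes with 20 or more UMIs in the class, 9.49% were lower and 5.65% were higher by this rule. Since the genes had been chosen on this same difference, nothing is read from the excess. The median log2 ratio (BLM over naive) of the 10 genes was −1.45, and that of all 10515 genes was −0.20. Measured relative to that median gene, each ratio below is 0.20 higher, and the same 5 genes were lower and the same 5 within 2-fold. The genes on either side of the 2-fold line were Siglecf at −1.98 and Pparg at −0.91.

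**Figure D1:**
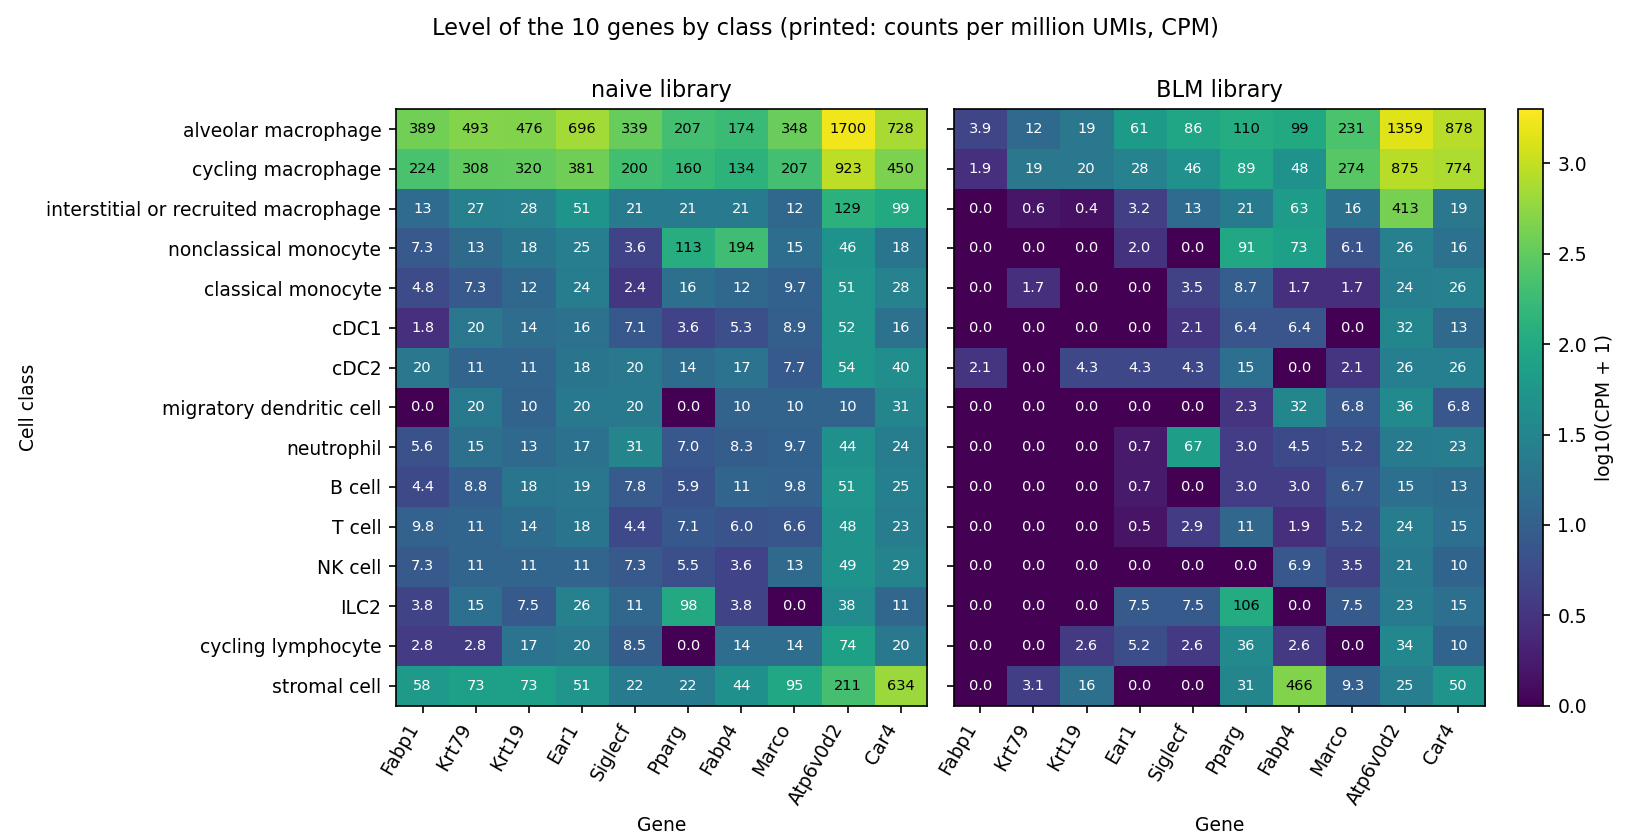
Level of each of the 10 genes (columns) in each cell class (rows) of the naive and the BLM library, printed in CPM and coloured on the scale log10(CPM + 1). In the naive library all 10 columns are bright in alveolar macrophages, while in the BLM library the 3 leftmost columns, Fabp1, Krt79 and Krt19, are at 3.92, 12.3 and 19.3 CPM there.

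In the mouse genome (GRCm38, GENCODE vM21) all 10 are protein-coding. Krt79 lies on chromosome 15 from 101929332 to 101940324 on the minus strand and Krt19 on chromosome 11 from 100140810 to 100148665 on the minus strand, so these keratins are in different clusters. Fabp1 lies on chromosome 6 from 71199827 to 71205023 on the plus strand and Fabp4 on chromosome 3 from 10204088 to 10208576 on the minus strand. Pparg spans 115360951 to 115490399 of chromosome 6, Car4 84957786 to 84966044 of chromosome 11 and Siglecf 43351341 to 43359531 of chromosome 7, all on the plus strand. Marco spans 120474538 to 120505024 of chromosome 1, Atp6v0d2 19876841 to 19922605 of chromosome 4 and Ear1 43818765 to 43875517 of chromosome 14, all on the minus strand.

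RefSeq promoters (GRCm38.p6) were matched for 7 of the 10, and those of Krt19, Fabp4 and Atp6v0d2 were not matched. In the 250 bases before each start, on both strands, 5 motifs were searched: the TATA box TATAAA, the nuclear receptor half-site AGGTCA, its direct repeat with 1 base between AGGTCANAGGTCA, which is the form PPAR gamma binds, the PU.1 core GAGGAA and the AP-1 site TGACTCA. Of 32851 promoters of this length, 12.4%, 14.0%, 0.033%, 23.3% and 4.46% held them. Shown are the 3 matched genes with the lowest ratios and Car4, the gene that was not lower over the class, with motif letters in capitals. Each runs 5′ to 3′ on the strand of its gene and stops before the first annotated exon base it meets. The Ear1 window lies before the RefSeq start but within the GENCODE span of the gene, which holds a longer transcript.
Fabp1 (chr6:71199629-71199826, plus strand): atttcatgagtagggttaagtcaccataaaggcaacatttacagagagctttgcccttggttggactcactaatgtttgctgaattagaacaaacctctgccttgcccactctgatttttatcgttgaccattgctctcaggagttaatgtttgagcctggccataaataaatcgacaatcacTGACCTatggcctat
Krt79 (chr15:101940325-101940574, minus strand): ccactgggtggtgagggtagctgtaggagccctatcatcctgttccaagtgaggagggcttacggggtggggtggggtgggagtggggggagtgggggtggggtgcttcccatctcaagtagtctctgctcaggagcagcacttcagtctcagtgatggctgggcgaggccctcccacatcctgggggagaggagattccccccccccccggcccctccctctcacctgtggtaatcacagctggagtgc
Ear1 (chr14:43819640-43819889, minus strand): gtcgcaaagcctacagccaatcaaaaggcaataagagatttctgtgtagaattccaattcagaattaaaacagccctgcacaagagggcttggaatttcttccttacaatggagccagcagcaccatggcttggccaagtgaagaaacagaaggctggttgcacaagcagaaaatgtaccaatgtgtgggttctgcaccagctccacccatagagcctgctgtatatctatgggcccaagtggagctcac
Car4 (chr11:84957504-84957753, plus strand): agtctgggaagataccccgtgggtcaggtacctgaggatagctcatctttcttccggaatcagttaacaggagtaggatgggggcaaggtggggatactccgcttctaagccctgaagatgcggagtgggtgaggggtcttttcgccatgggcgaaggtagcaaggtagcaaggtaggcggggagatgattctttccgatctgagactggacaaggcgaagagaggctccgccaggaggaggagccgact
The capitals in Fabp1 mark a half-site on the opposite strand, 67 to 62 bases before the RefSeq start. Nearer that start, in bases not shown, Fabp1 also had a PU.1 core, a TATA box 30 to 25 bases before it and a second half-site, and no direct repeat was found in any of the 7. Krt79, Ear1 and Car4 had none of the 5 motifs, Marco and Siglecf had 1 PU.1 core each, and the 3 Pparg starts had 1, 3 and 0 matches. The 3 matched genes with the lowest ratios, Fabp1, Krt79 and Ear1, thus shared none of these 5 motifs. Siglecf, also lower in BLM, had a PU.1 core as Fabp1 did, and Krt19 was not searched. A match is a run of letters and not a bound site.

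Fabp1, whose promoter above was the only one of the 4 shown with a motif match, had the lowest ratio of the 10. It stood at 389 CPM (374 to 405) in naive and at 3.92 CPM (2.51 to 5.84) in BLM alveolar macrophages, a log2 ratio of −6.63 (−7.28 to −6.05). A Fabp1 UMI was seen in 79.7% of naive cells (462 of 580) and in 3.03% of BLM cells (14 of 462). No BLM cell held 5 or more Fabp1 UMIs, against 181 naive cells. Of all 10515 genes ranked by their ratio from the lowest, Fabp1 was at place 8.

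The keratins followed. Krt79 went from 493 CPM (475 to 511) in naive to 12.3 CPM (9.65 to 15.4) in BLM, a log2 ratio of −5.33 (−5.68 to −5.00). Krt19 went from 476 CPM (459 to 494) to 19.3 CPM on 118 UMIs, a log2 ratio of −4.62 (−4.90 to −4.36). Both were widespread in naive cells and rare in BLM cells: Krt79 was detected in 83.6% and 7.58% of cells, and Krt19 in 91.6% and 10.4%. The few BLM UMIs sat in a few cells, since the 10 richest BLM cells held 65.3% of the Krt79 UMIs and 55.1% of the Krt19 UMIs, against 7.64% and 7.49% in naive.

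Because keratins and Epcam are epithelial genes, the epithelial markers were counted in the same cells. Sftpc, Sftpa1, Sftpb, Ager and Scgb1a1 each stayed at or below 2.64 CPM in alveolar macrophages of both libraries. Epcam was at 107 CPM in naive and 14.2 CPM in BLM, and Cdh1 at 35.2 and 25.2 CPM. All 7 epithelial markers summed to 148 CPM in naive and 43.3 CPM in BLM alveolar macrophages, and to 25.5 and 37.4 CPM in B cells. Their part in the difference of the keratins was not tested.

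Ear1, the ribonuclease, fell from 696 CPM (675 to 717) in naive to 61.0 CPM (55.0 to 67.5) in BLM, a log2 ratio of −3.51 (−3.67 to −3.36). It was detected in 94.5% of naive and 29.0% of BLM cells. Reads of Ear1 and its near-identical relatives can be split or lost between them by the counting, which makes the value of any single family member uncertain. Ear2, the most abundant relative, went from 2156 to 1182 CPM, a log2 ratio of −0.87 (−0.91 to −0.83), and Ear6 had 16.2 CPM in naive and 16.4 CPM in BLM. The ratio of Ear1 was lower than that of Ear2, with intervals far apart.

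Siglecf, the surface receptor by which alveolar macrophages are often gated, fell from 339 CPM (325 to 354) to 85.9 CPM (78.7 to 93.5), a log2 ratio of −1.98 (−2.12 to −1.84). It was found in 90.7% of naive and 43.9% of BLM alveolar macrophages. Unlike the keratins it was spread over BLM cells, with 120 of 462 cells holding 2 or more UMIs.

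Pparg had 207 CPM (196 to 219) in naive and 110 CPM (102 to 119) in BLM alveolar macrophages, a log2 ratio of −0.91 (−1.05 to −0.77), so it was lower but just inside the 2-fold line. Its UMIs were seen in 79.7% of naive and 56.5% of BLM cells. Fabp4, the other fatty acid carrier, had 174 CPM (164 to 185) and 99.3 CPM (91.5 to 107), a log2 ratio of −0.81 (−0.96 to −0.66). The fatty acid carriers thus differed from each other in size: Fabp1 was 99.1-fold lower in BLM and Fabp4 1.75-fold lower.

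Marco had 348 CPM (333 to 363) in naive and 231 CPM (219 to 244) in BLM, a log2 ratio of −0.59 (−0.69 to −0.49). Without integration it was 0.20, from the 51 shallow BLM cells alone. This sum hid an uneven spread. Marco was detected in 57.2% of naive cells but in only 83 of 462 BLM cells, the 10 richest BLM cells held 60.4% of its UMIs (16.2% in naive), and 1 BLM cell alone held 279. When each cell was given equal weight by averaging the CPM of single cells, Marco, Fabp4 and Pparg moved past the 2-fold line, at −1.18, −1.06 and −1.06, and 8 of the 10 genes were lower.

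Atp6v0d2 and Car4 were the genes that stayed closest to their naive level. Atp6v0d2, the lysosomal pump subunit, had 1700 CPM (1667 to 1733) in naive and 1359 CPM (1330 to 1388) in BLM, a log2 ratio of −0.32 (−0.36 to −0.28), and a UMI of it was present in 99.7% and 96.5% of cells. Car4 had 728 CPM (707 to 750) and 878 CPM (855 to 902), a log2 ratio of 0.27 (0.21 to 0.33), which turned to −0.27 when all macrophage classes were pooled and to −0.31 in the 51 shallow cells of the clustering without integration. Fewer BLM than naive cells had a Car4 UMI (69.7% against 85.9%), yet the upper tail was longer: the 90th percentile was 32 UMIs per cell in BLM and 19 in naive. In BLM 140 of 462 alveolar macrophages had no Car4 UMI and 218 had 5 or more.

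**Figure D2:**
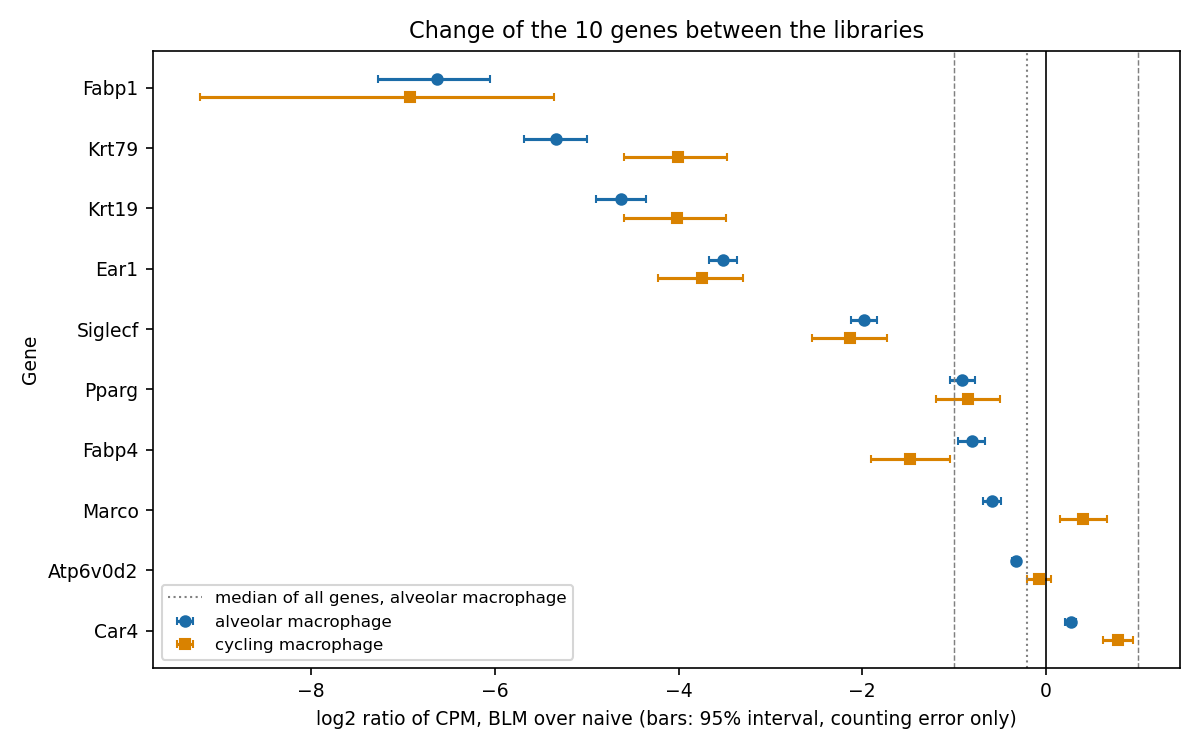
log2 ratio of CPM (BLM over naive) of the 10 genes in alveolar macrophages (circles) and in cycling macrophages (squares), with 95% intervals that cover counting error only; dashed lines mark 2-fold and the dotted line the median of all genes in alveolar macrophages. Fabp1, Krt79, Krt19, Ear1 and Siglecf lie left of the 2-fold line in both classes, and Fabp4 does so in cycling macrophages at −1.48.

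The BLM cells were the deeper ones, and each share was lower in BLM also after every cell was thinned to 1000 UMIs. No alveolar macrophage was shallower than that. The expected share of cells with a UMI was then 27.8% in naive and 0.338% in BLM for Fabp1, 34.7% and 0.787% for Krt79, 28.5% and 7.62% for Siglecf, 21.2% and 6.87% for Marco, 41.9% and 37.7% for Car4, and 78.6% and 64.1% for Atp6v0d2. A thinned naive alveolar macrophage showed 3.46 of the 10 genes on average and a BLM one 1.39. Thinned B cells, which are not known for any of the 10, showed 0.164 and 0.0419.

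Detection of the 4 lowest genes was then counted cell by cell. In naive, 363 of 580 alveolar macrophages (62.6%) had a UMI of all 4 of Krt79, Krt19, Fabp1 and Ear1, and 1 cell had none. In BLM, 292 of 462 cells (63.2%) had none of the 4 and no cell had all 4 (0 of 462, so that a share as high as 0.649% is still possible). There were 44 BLM cells with 2 or 3 of the 4, at a median depth of 16820.5 UMIs against 12128.5 for the rest. In those 44 cells Marco stood at 1039 CPM against 103 CPM in the other BLM cells, Pparg at 163 against 102 CPM, and Fabp4 at 200.2 against 83.2 CPM. Arg1, which encodes the enzyme that splits arginine and is linked to repair macrophages, went the other way, at 249 CPM in the 44 cells and 982 CPM in the rest.

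**Figure D3:**
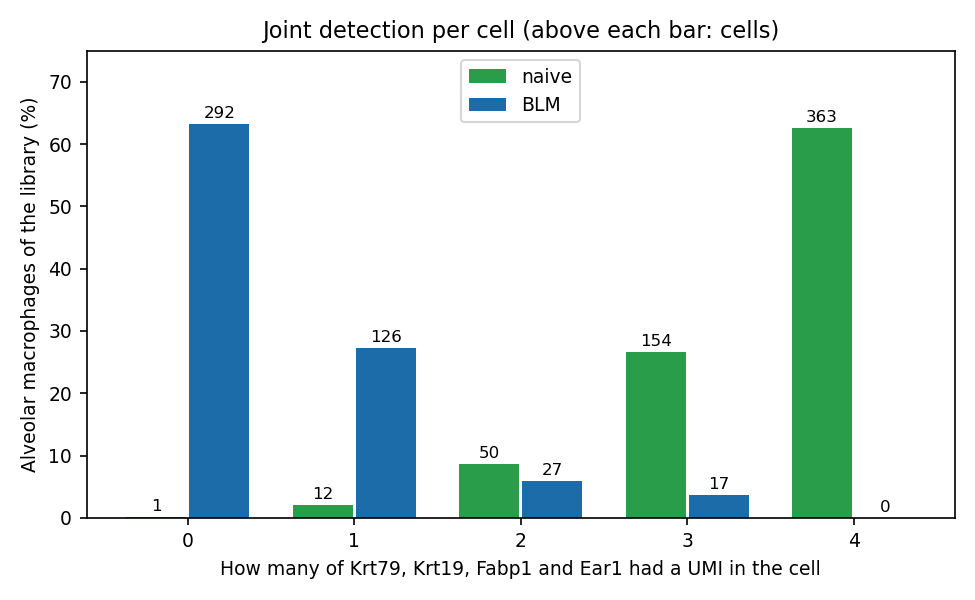
Share of alveolar macrophages of each library (vertical axis, percent) by how many of Krt79, Krt19, Fabp1 and Ear1 had a UMI in the cell, with the number of cells above each bar. The naive cells pile up at 4 genes (363 cells) and the BLM cells at 0 genes (292 cells).

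To see whether BLM alveolar macrophages were alike, all macrophage cells were clustered again without integration and without the 10 genes. Of the naive alveolar macrophages, 571 of 580 fell in 1 sub-cluster, which held 580 naive and 2 BLM cells. The BLM cells of the alveolar class fell mainly into 3 others. The largest, with 367 BLM cells of which 340 were of the alveolar class, was led by Cspg4, Lrg1, Cav1 and Ace and had an Arg1 UMI in 89.4% of its cells. A second, of 77 BLM cells that were all of the alveolar class, was led by Hmox1, the heme-degrading enzyme, Marco, the protease gene Ctsk and the oxysterol enzyme Ch25h, and had an Arg1 UMI in 42.9% of its cells. Another, of 198 BLM cells, was led by Apoe, Olfml3, Gpnmb, Syngr1 and Spp1, and 41 of its cells were of the alveolar class and 157 of the interstitial or recruited class.

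The 77 cells of the Hmox1- and Marco-led sub-cluster held most of the remaining UMIs of 5 of the 10 genes. They were 16.7% of the BLM alveolar macrophages, and they held 85.3% of the Marco, 84.7% of the Krt19, 70.8% of the Fabp1, 68.0% of the Krt79 and 52.4% of the Fabp4 UMIs of that class. Of the other 5, Pparg, Ear1, Siglecf, Atp6v0d2 and Car4, they held 23.7 to 35.5%, and the Cspg4-led sub-cluster held 57.4 to 71.8%. The 77 cells were deeper, at a median of 16304 UMIs against 11576 in the Cspg4-led sub-cluster. Their share of all UMIs of the class was thus above 16.7%, and the 23.7% of Car4 is not read as an excess. Their Marco level was 936 CPM (884 to 990), above the 346 CPM of the naive sub-cluster. The 10 richest BLM cells of the class held 60.4% of its Marco UMIs, so this sum need not describe most of the 77 cells. Their Pparg level, 185 CPM (163 to 211), had an interval that overlapped that of the naive sub-cluster (207 CPM, 196 to 219), and the log2 ratio was −0.16 (−0.36 to 0.04). Fabp4 was at 247 CPM against 172 CPM, Atp6v0d2 at 1854 against 1692 CPM and Car4 at 988 against 725 CPM. The 5 genes that were lower in the class were lower here too: Krt79 was at 39.6 CPM (log2 ratio −3.62 to naive), Krt19 at 77.6 CPM (−2.61), Fabp1 at 13.2 CPM (−4.87), Ear1 at 100.1 CPM (−2.79) and Siglecf at 131 CPM (−1.37). Marco was itself one of the leading genes that describe this sub-cluster, although it was left out of the clustering.

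The larger Cspg4-led sub-cluster kept Car4 and Atp6v0d2 within 2-fold and was low in the others. Car4 was at 882 CPM (854 to 910) and Atp6v0d2 at 1123 CPM (1092 to 1155). Marco was at 38.7 CPM, a log2 ratio to the naive sub-cluster of −3.16 (−3.40 to −2.94), Fabp4 at 48.5 CPM (−1.83) and Pparg at 89.7 CPM (−1.21). Krt79, Krt19 and Fabp1 were at 5.24, 2.50 and 1.59 CPM. Within BLM, the Hmox1- and Marco-led cells had 4.60 higher Marco on the log2 scale (4.36 to 4.84) than the Cspg4-led cells, 4.95 higher Krt19 and 2.35 higher Fabp4, but only 0.16 higher Car4 (0.07 to 0.26).

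**Figure D4:**
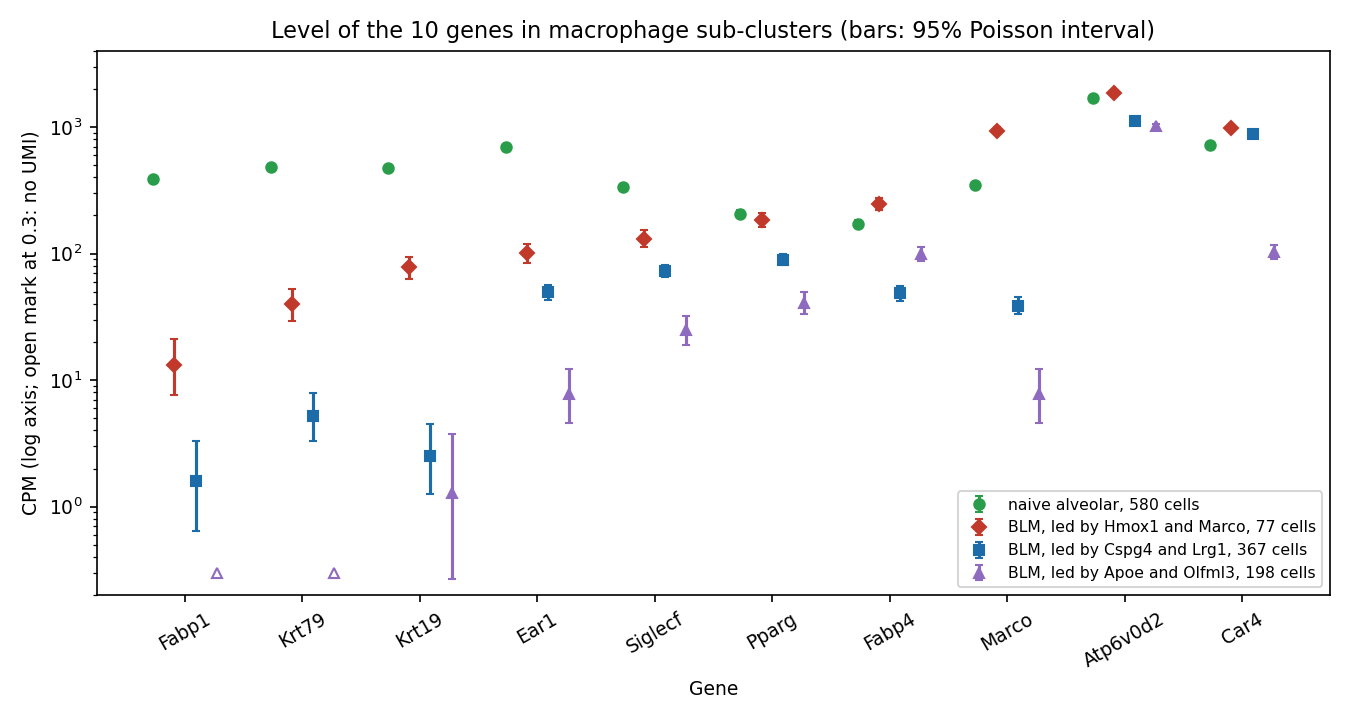
Level of the 10 genes in CPM (log axis, bars are 95% Poisson intervals) in the naive alveolar sub-cluster and in the 3 BLM sub-clusters that hold most alveolar macrophages; an open mark stands for no UMI. The 77 BLM cells led by Hmox1 and Marco (diamonds) sit at or above the naive level for Fabp4, Marco, Atp6v0d2 and Car4, while the 367 cells led by Cspg4 and Lrg1 (squares) lie below the naive level except for Car4.

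A call of kept or lost for Pparg, Fabp4 and Marco thus depended on these 77 cells. Without them, a choice made after their values had been seen, Marco fell to a log2 ratio of −3.01, Fabp4 to −1.54 and Pparg to −1.20, 8 of the 10 genes were lower, and the median over the 10 was −2.61. Atp6v0d2 at −0.47 and Car4 at 0.22 stayed within 2-fold. Without the Cspg4-led cells instead, Marco was at 0.84, Fabp4 at 0.20 and Atp6v0d2 at 0.0061, each with its sign turned. A finer clustering of the integrated cells also split the class, here with cells of both libraries on each side. The side with more Hmox1 and Ctsk (173 BLM and 243 naive cells) had 493 CPM of Marco in BLM and 408 CPM in naive. The share of cells with a Marco UMI went the other way there, at 39.9% in BLM and 64.2% in naive. After thinning it was 16.9% and 23.8%, so the higher sum in BLM does not describe most cells of this side. The other side (288 BLM and 337 naive cells) had 8.81 and 292 CPM of Marco, a log2 ratio of −5.05 (−5.64 to −4.52).

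In cycling macrophages 6 of the 10 genes were lower by the same rule and none was higher, where 9.13% of all tested genes were lower and 4.26% higher. Fabp1 was at 224 CPM in naive and 1.85 CPM in BLM, Krt79 at 308 and 19.2 CPM, Krt19 at 320 and 19.8 CPM, Ear1 at 381 and 28.4 CPM and Siglecf at 200.4 and 45.7 CPM. Fabp4 joined them here, at 134 CPM in naive and 48.2 CPM in BLM. Marco was at 207 CPM (178 to 240) in naive and 274 CPM (249 to 301) in BLM, and Car4 at 450.1 and 774 CPM, but the class was mixed: 23 of its 71 naive and 10 of its 101 BLM cells fell in a sub-cluster led by dendritic cell genes such as Cd209a, Ccl22 and Xcr1. In the cycling sub-cluster without them, of 92 BLM and 51 naive cells, Marco had a log2 ratio of −0.07 (−0.31 to 0.17), so its direction was not the same, and Car4 one of 0.27 (0.12 to 0.43). Krt79 was at 454 CPM in naive and 20.8 CPM in BLM there, and Fabp1 at 340.2 and 1.95 CPM.

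In interstitial or recruited macrophages Atp6v0d2 and Fabp4 were higher in BLM by the same rule, and Car4, Krt79, Krt19 and Ear1 were lower, where 9.25% of all tested genes were lower and 4.32% higher. Different cells made up the class in each library: the sub-clusters led by Ccl24 and Mmp12, by Apoe and Spp1, and by Ccl8 and Lyve1 held 248, 157 and 69 of its BLM cells but 25, 0 and 68 of its naive cells, and a further sub-cluster led by Plac8 and Ly6c2 held 1 and 24. In the naive library the median gene of the 10 stood in B cells at 2.83% of its alveolar level (range 1.13 to 6.20%), and Chil3, the most abundant alveolar marker, at 2.86%. In BLM the B cell level had a median of 1.16%, and 4 of the 10 genes had no UMI in 636 B cells, so that up to 0.472% of B cells with a UMI remain possible. Beside that background, Atp6v0d2 in BLM interstitial or recruited macrophages had 413 CPM (395 to 431), 30.4% of the alveolar level, and 129 CPM (105 to 158) in naive, a log2 ratio of 1.68 (1.38 to 1.99). Fabp4 had 63.3 CPM (56.5 to 70.7) in BLM and 21.3 CPM (12.2 to 34.6) in naive, a log2 ratio of 1.57 (0.85 to 2.40). Fabp1 had no UMI in the 502 BLM cells and 10 UMIs in naive. Krt79 and Krt19 had 3 and 2 UMIs in BLM and 20 and 21 in naive, and Ear1 had 3.19 CPM in BLM and 50.6 CPM in naive. Pparg had 21.4 CPM in BLM and 21.3 CPM in naive, and Car4 19.4 and 98.6 CPM. The naive values of Krt79, Krt19, Ear1 and Fabp1 in this class lay between 3.42% (Fabp1) and 7.28% (Ear1) of the alveolar level, above the B cell values of 1.79% (Krt79), 3.81% (Krt19), 2.68% (Ear1) and 1.13% (Fabp1), and Chil3 stood there at 7.30%. The class also held 4 naive cells of the naive alveolar sub-cluster and 25 BLM cells of the Cspg4-led sub-cluster. The part of those 4 cells and of free RNA in these naive values was not tested.

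The Apoe- and Spp1-led sub-cluster of 198 BLM cells lay across both classes, with 157 cells in the interstitial or recruited class and 41 in the alveolar class. Atp6v0d2 reached 1012 CPM (972 to 1054) there, against 227 CPM in the sub-cluster led by Ccl24 and Mmp12 and 49.1 CPM in the BLM cells of the sub-cluster led by Ccl8 and Lyve1. Fabp4 had 99.1 CPM (86.7 to 113), Car4 103 CPM (89.9 to 116), Pparg 40.9 CPM on 95 UMIs and Siglecf had 58 UMIs. Krt79 and Fabp1 had no UMI and Marco had 7.75 CPM. The 41 cells of the alveolar class held 202 of the 238 Car4 UMIs, 34 of the 58 Siglecf UMIs, 39 of the 95 Pparg UMIs, 69 of the 230 Fabp4 UMIs and 881 of the 2350 Atp6v0d2 UMIs of this sub-cluster.

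Outside macrophages, Pparg, Fabp4 and Siglecf each had a class well above the B cell level. Pparg was at 113 CPM (93.9 to 135) in naive and 91.0 CPM (66.4 to 122) in BLM nonclassical monocytes, the patrolling monocytes marked by Ace and Treml4. In ILC2, the group 2 innate lymphoid cells, Pparg was at 98.0 CPM (64.0 to 144) in 115 naive cells and 106 CPM (57.8 to 177) in 38 BLM cells. B cells had 5.88 and 2.99 CPM of Pparg. In BLM the intervals of alveolar macrophages, ILC2, nonclassical monocytes and cycling macrophages overlapped from each to the next, so their order by Pparg is not given. In naive, alveolar macrophages were above cycling macrophages with no overlap, and the interval of cycling macrophages began just above the end of that of nonclassical monocytes.

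Fabp4 was as high in naive nonclassical monocytes (194 CPM, 169 to 222) as in naive alveolar macrophages (174 CPM, 164 to 185), with overlapping intervals. In BLM nonclassical monocytes it was at 72.8 CPM (51.0 to 101), a log2 ratio of −1.41 (−1.97 to −0.90). A Fabp4 UMI was seen in 36.3% of the naive and 14.1% of the BLM nonclassical monocytes, at median depths of 4212 and 2500 UMIs, and in 15.9% and 7.54% after thinning, which left out 2 and 4 cells. Pparg in the same cells had a log2 ratio of −0.31 (−0.84 to 0.19). Cdh5, 1 of the 6 endothelial markers, had 2 UMIs in the 234 naive nonclassical monocytes and none in the 184 BLM ones. It does not stand for the list, since BLM B cells had no Cdh5 UMI while their 6 endothelial markers summed to 165 CPM. The other endothelial markers are not given for nonclassical monocytes, and a part of endothelial RNA in the Fabp4 values was not tested. Classical monocytes had 12.1 CPM of Fabp4 in naive and 1.75 CPM in BLM, close to the B cell levels of 10.8 and 2.99 CPM.

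Siglecf was also found in neutrophils. It was at 30.6 CPM (19.2 to 46.3) in naive and 67.1 CPM (54.0 to 82.5) in BLM neutrophils, a log2 ratio of 1.13 (0.45 to 1.88). In BLM this interval overlapped that of alveolar macrophages. A UMI was found in 75 of 998 BLM neutrophils (7.52%) and 21 of 453 naive ones (4.64%), at median depths of 1329 and 1580 UMIs, and in 6.16% and 2.89% after thinning, which left out 125 and 12 cells. B cells had a Siglecf UMI in none of 636 BLM cells and in 1.95% of naive cells, at median depths of 1654 and 1957. Eosinophils also carry Siglecf. The eosinophil markers Epx, Prg2, Il5ra and Ccr3 had no UMI in any of these 75 and 21 cells, in a class of low depth. S100a8 was present in 88.0% of the 75 and 100% of the 21, but it is one of the markers that named the class. The alveolar gene Chil3 was at 252 CPM in the 75 cells and 206 CPM in the other BLM neutrophils. The source of the Siglecf UMIs in this class was not tested.

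Car4 and Fabp4 also appeared in the small stromal class, which carried 6 of 6 endothelial markers in both libraries. Car4 was at 634 CPM in 25 naive cells and 49.7 CPM in 45 BLM cells, and Fabp4 at 43.7 and 466 CPM. These values rested on a handful of cells: 3 cells held 65 of the 87 naive Car4 UMIs and 144 of the 150 BLM Fabp4 UMIs. The endothelial markers summed to 4688 CPM in naive and 2297 CPM in BLM stromal cells. Their part in the levels was not tested. A further cluster of 80 BLM and 37 naive cells with a median of 845.5 and 1218 UMIs per cell stayed unnamed, and it had 740 and 702 CPM of Atp6v0d2.

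The genes around the 10 were described from lists of named pathways in alveolar macrophages, with the same rule for lower and higher. Over all tested genes 9.49% were lower and 5.65% higher, and a count such as 1 of 16 or 2 of 14 is near that share. Of 18 other alveolar macrophage genes, 5 were lower, none was higher and the median log2 ratio was −0.56. The lowest were Cidec, a lipid droplet protein (406 CPM in naive and 13.9 CPM in BLM, −4.87), and Serpinb1a, a protease inhibitor (−2.27). The highest were Itgax (0.15) and Ctsk (0.98), and Chil3 had 11356 CPM in naive and 10500 CPM in BLM. Of the 18, 13 stayed within 2-fold. All 10 markers that named the alveolar class are among these 18 and were not left out of the clustering, so nothing is read from that count.

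Of 17 genes of lipid handling, many of them PPAR gamma targets, 8 were lower, 1 was higher and the median was −0.70. Cidec and Pdk4, the kinase that turns off pyruvate oxidation, were the lowest at −4.87 and −3.65. Cd36, the fatty acid receptor, fell from 601 to 64.4 CPM (−3.22). Hilpda, an inhibitor of lipid droplet breakdown, was the gene that was higher, at 1.01, followed by Fabp5, another fatty acid carrier, which had 681 CPM in naive and 981 CPM in BLM (0.53).

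Of 16 measured genes of the GM-CSF and TGF-beta axis and of factors upstream of Pparg, 1 was lower, none was higher and the median was 0.10. The lower one was Cebpa, a myeloid transcription factor, at −1.02 (−1.11 to −0.94), and next came Spi1, which encodes PU.1, at −0.66. The highest were Bhlhe40 at 0.73 and Klf4 at 0.60. The GM-CSF receptor chains Csf2ra and Csf2rb had ratios of 0.26 and 0.32. None of the 17 other proton pump subunits passed 2-fold in either direction, with a median of −0.05 and a range from Atp6v1g1 at −0.48 and Atp6v1b2 at −0.37 to Atp6v1a at 0.38 and Tcirg1 at 0.59.

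Scavenger receptors went both ways. Of 10 measured, Cd36 was lower, Msr1 (3.29), Stab1 (2.19) and Colec12 (1.77) were higher, and Mrc1 was at −0.62. Msr1, the class A relative of Marco, went from 35.2 to 344 CPM, while Marco stayed within 2-fold over the class as a whole, though not without the 77 cells. Of 14 measured relatives of the 10 genes, 2 were lower and 2 higher, with a median of −0.31. Siglech (−4.77, −10.12 to −2.17, on 1 BLM UMI) and Siglece (−1.12) were lower, and Fabp7 (6.48, 3.96 to 11.80, on 1 naive UMI) and Car13 (1.22) were higher.

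Genes of recruited macrophages and of macrophages in scars were high in the BLM cells of the alveolar class. Of 14 monocyte and recruited macrophage genes, 11 were higher, 2 were lower and the median was 3.16. C1qb (4.84) and C1qa (4.60) led, and the lower ones were Plac8 (−1.94) and Ly6c2 (−1.40). Both are among the classical monocyte markers used here, but Ccr2 (3.84) and Vcan (3.18), also among those markers, were higher. Of 10 scar-associated genes, 6 were higher and none was lower, with a median of 1.59. Arg1 had 881 CPM in BLM and 2 UMIs in naive, a log2 ratio of 11.38 (9.53 to 14.43), and Mmp12, a macrophage elastase, was at 5.68, while Lgals3 was at −0.92 and Cd9 at −0.49. In sums over a class, fewer cells with a gene and less RNA of it per cell cannot be told apart, and neither can loss in resident cells and replacement by newly arrived cells.

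For each of the 10, the gene with the most similar profile was sought over 22 points, which were 11 classes with 50 or more cells in each of the 2 libraries, by Pearson's r of log2(CPM + 10). The points of 1 library share its depth and its free RNA, so r is a description. Cidec was nearest to Krt79 (r = 0.98), Krt19 (0.98) and Ear1 (0.97). Gal, which encodes the peptide galanin, was nearest to Fabp1 (0.98), and it went from 104 to 7.52 CPM in alveolar macrophages. Lilra5 was nearest to both Pparg (0.95) and Fabp4 (0.93), and it went from 252 to 101 CPM. Rufy4 was nearest to Siglecf (0.95), Gmpr to Car4 (0.96), Prom1 to Marco (0.97) and Hebp1 to Atp6v0d2 (0.98). The 4 genes with the lowest ratios and the others had different nearest genes. The points include the alveolar macrophages of both libraries, so this in part restates the grouping by ratio.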

How the data were processed

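Single-cell RNA-seq of CD45+ lung cells gave 1 library per group. The authors deposited UMI counts per cell and gene, with no normalisation. Reads had been mapped to GRCm38 with GENCODE vM19, per the file headers by version 1.8 of the BD Rhapsody WTA pipeline, in a separate run for each library. A gene absent from a table was set to 0. Barcodes were kept if they had at least 200 genes and no more than 15% of UMIs from mitochondrial genes (4526 BLM, 3925 naive). Scrublet in scanpy 1.11.5 marked 8 BLM and 61 naive cells by its own threshold, too few in BLM, so the highest-scoring 3% of each library (135 and 117 cells) were left out. The kept cells held 21178260 and 16874692 UMIs. Libraries were integrated in Seurat 5.3.0 (R 4.3.3; 2000 variable genes without the 10, 30 dimensions, resolution 0.5). Classes were named from fixed markers, and differences from the study may come from these rebuilt names. Macrophages were clustered again without integration (20 dimensions).

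With 1 library per group and cells not being replicates, no test was run. Intervals are exact at 95% (Poisson for CPM, Clopper-Pearson for shares, conditional for log2 ratios) and cover counting error only. Those of the log2 ratios were checked on simulated Poisson counts, which is the model they assume. That check does not cover UMIs gathered in few cells. Ratios needed 20 UMIs over both libraries. The floor under a zero was 3 counts. The genes, lists and markers were chosen with earlier results of these data known. Named genes were the 10, the nearest gene of each, the 2 highest and 2 lowest of each list, and leading genes of macrophage clusters. Cd36, Fabp5, Chil3, Csf2ra, Csf2rb, Colec12, Ear2, Ear6 and Epcam with the other cell type markers were named outside that rule, after their values were seen.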

Additional observations from a re-analysis of the deposited data

How the results depend on the processing

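No paired analysis was possible because each group had 1 library. The counts of 5 lower and 5 kept genes moved by more than 1.5 times, or the median of −1.45 left its error, under these settings. Without integration, where the class held 51 BLM cells at a median of 1050 UMIs, 3 genes were kept and the median was −1.88. The mean over cells gave 8 lower, 2 kept and −1.60. Centring on the median gene gave −1.24 and pooling all macrophages −1.91. Without the 77 Hmox1- and Marco-led BLM cells, 8 were lower, 2 kept and the median was −2.61, and without the Cspg4-led BLM cells it was −1.10; both were chosen after seeing the data. The log2 ratio changed sign for Car4 without integration (−0.31) and with macrophages pooled (−0.27), for Marco without integration (0.20), and, without the Cspg4-led cells, for Marco (0.84), Fabp4 (0.20) and Atp6v0d2 (0.0061). Fabp1, Krt79, Krt19, Ear1 and Siglecf kept their direction in all 16 settings, with highest values of −4.13, −4.24, −1.61, −2.65 and −1.67. Settings that changed only the minimum of UMIs or the fold could not turn a direction. The genes had also been chosen on this difference, so nothing is read from that count. Genes per thinned cell, 1.39 in BLM and 3.46 in naive, became 2.28 and 6.07 at 3000 UMIs, 3.59 and 8.13 without thinning, 1.26 in BLM at resolution 0.3, and 0.846 and 2.83 with macrophages pooled. The cause of these moves was not tested. Depth limits the zeros: B cells of the BLM library had a median of 1654 UMIs.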
